A study of Drosophila melanogaster with 2 samples.

Results

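Translation factor genes were taken as the protein-coding genes of Drosophila melanogaster whose annotated symbols start with eIF, eEF or eRF, for eukaryotic initiation, elongation and release factors. The rule gave 54 of the 13945 protein-coding genes on the assembled chromosomes, and no measured value was used to choose them. They were examined in chromatin immunoprecipitation sequencing (ChIP-seq) peaks of Drgx, a homeodomain transcription factor. The material was whole embryos of 1 day of age from transgenic flies of the strain labelled Drgx-GFP, which express Drgx fused to the fluorescent tag eGFP. The description in the labels gives an anti-GFP antibody for the precipitation, while the antibody field of the labels reads Drgx. The 2 libraries are biological replicates of this 1 group, both carry the tagged transgene, and no untagged or input library was used here. The peaks describe precipitated chromatin from a mixture of all embryonic cells, and which of them come from Drgx itself was not tested. Each gene was looked for in 4 thresholded peak lists. The pooled list (8443 peaks) and the conservative list (7909) were made by the authors from both replicates, and replicate 1 (6349) and replicate 2 (5475) each have a list of their own.

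Initiation factors bring the first tRNA and the messenger RNA to the small ribosomal subunit, find the start codon and join the large subunit. Elongation factors deliver further tRNAs and move the ribosome along, and release factors end the chain at a stop codon. Nearly every cell uses these proteins, and several have close copies in flies that are used mainly in the germ line. Many broadly active fly promoters carry the DNA replication-related element (DRE), a word bound by the factor Dref, while homeodomain proteins bind AT-rich words with a TAAT core.

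The 6 sequences below are examples, chosen after their values were seen, from member peaks that ranked high or whose window holds a searched word. Each window reaches 50 bp to either side of a peak summit, the base that the authors gave as the peak's highest point, on the plus strand of the Release 6 assembly (dm6). Capitals mark a match to TAATTA, a word that holds the homeodomain core TAAT, or TATCGATA, the DRE. Both words read the same on either strand. The windows are those upstream of eIF2Bbeta at chrX:2703840-2703940, of eEF1gamma at chr3R:29220072-29220172 and of eRF3 at chr2L:12434105-12434205, those in an intron of eIF3h at chr2L:5052417-5052517 and of eIF4G2 at chr3R:23817688-23817788, and the window just upstream of eIF4EHP at chr3R:24109143-24109243. The last comes from a ranked list only.
eIF2Bbeta: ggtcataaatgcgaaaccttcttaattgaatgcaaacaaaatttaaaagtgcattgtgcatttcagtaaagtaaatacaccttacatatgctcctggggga
eEF1gamma: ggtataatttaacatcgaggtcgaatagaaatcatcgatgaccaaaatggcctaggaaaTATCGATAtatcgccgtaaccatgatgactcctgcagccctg
eRF3: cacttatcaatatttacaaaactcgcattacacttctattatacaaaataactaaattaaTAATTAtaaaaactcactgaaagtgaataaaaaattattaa
eIF3h: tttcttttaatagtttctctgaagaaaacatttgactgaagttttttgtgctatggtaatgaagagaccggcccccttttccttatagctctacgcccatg
eIF4G2: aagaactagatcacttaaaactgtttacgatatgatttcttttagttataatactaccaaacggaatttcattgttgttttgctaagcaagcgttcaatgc
eIF4EHP: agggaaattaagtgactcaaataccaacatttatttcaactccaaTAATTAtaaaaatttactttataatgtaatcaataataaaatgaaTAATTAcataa

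Of these 6 windows, the eEF1gamma window held the DRE once, the eRF3 window TAATTA once and the eIF4EHP window TAATTA at both ends of an AT-rich stretch. The windows of eIF2Bbeta, eIF3h and eIF4G2 held neither word. Each of them does hold the shorter TAAT, which was not counted over the other summits. Over the 27 pooled summits near or inside translation factor genes, TAATTA lay in 1 window (3.70%), where 7.97% of all 8443 pooled summits had it. The DRE lay in 2 of the 27 windows (7.41%), those of eEF1gamma and eIF3a, against 0.403% of all summits. GGTCACAC, a core promoter word bound by the factor M1BP, lay in 1, at eIF2A, against 0.497%. GAGAGAG, the word of the GAGA factor, and CACGTG, the E box bound by Myc and Max, lay in 0 of 27, against 2.93% and 0.734%. All 5 words were searched on both strands, and these shares are descriptions with no test. The 27 summits were taken for lying near a TSS or inside a gene, while all summits were taken wherever they lie. No share was computed for the other summits near a TSS, so the gaps cannot be told apart from this difference in place. The median G and C content was 38.6% for the 27 windows and 34.7% for all summits.

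The share of translation factor genes with a peak near the start was close to that of all genes in 3 of the 4 lists and higher in that of replicate 2. Of 54 genes, 1 gene makes up 1.85%. In the pooled list 14 of 54 (25.9%) had a summit within 1000 bp of a transcription start site (TSS), against 25.2% of all protein-coding genes. The conservative list gave 15 (27.8%, against 24.1%), replicate 1 gave 11 (20.4%, against 20.4%) and replicate 2 gave 15 (27.8%, against 18.1%). With 1 group and no control library these counts carry no test, and a share near that of all genes is not a result about these genes. Replicate 2 stood further from its background than replicate 1, and the cause was not tested. In 11 genes (20.4%) the pooled summit was nearer to the gene's own TSS than to any other protein-coding TSS, against 19.8% of all genes.

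**Figure D1:**
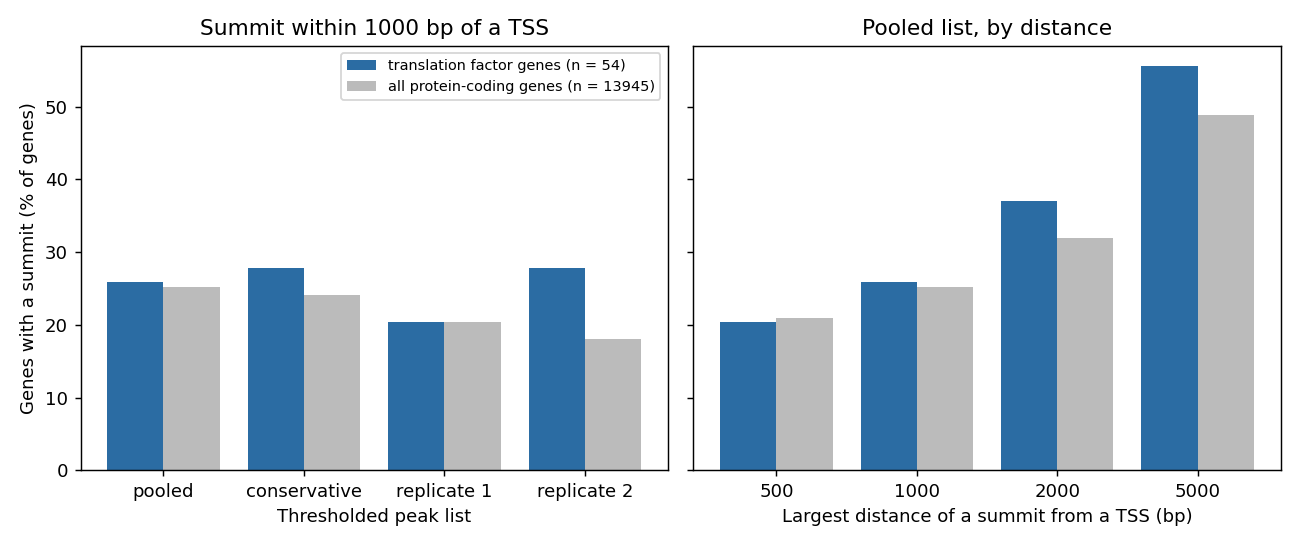
Share of genes (%) with a summit near a TSS, for 54 translation factor genes (blue) and 13945 protein-coding genes (grey), in each thresholded list with a window of 1000 bp (left) and in the pooled list with 4 window sizes (right). The bars are closest in the replicate 1 list, 20.4% for both, and furthest apart in the replicate 2 list, 27.8% against 18.1%.

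The same 9 genes had a summit near a TSS in both replicate lists and in all 4 lists: eIF2Bbeta, eIF6, eIF2D, eIF5B, eIF3h, eIF4H1, eEF1alpha1, eEF1gamma and eEFSec. They make up 16.7% of the 54, against 15.1% of all genes in both replicate lists. Counting any of the 4 lists, 19 genes (35.2%) had a summit near a TSS, against 28.2%. A summit in replicate 2 and none in replicate 1 was seen at eEF2, eIF1A, eIF3a, eIF3f1, eIF3m and eRF3, and the reverse at eIF2A and eIF4G2. Over all genes replicate 1 gave the larger share, 20.4% against 18.1% in replicate 2, and 15.1% had a summit in both. Among all genes, then, a summit in replicate 1 alone was more common than in replicate 2 alone, the reverse of the members. Why the members differ from this was not tested.

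The ranked lists, which hold every scored peak with no threshold, gave 48 of 54 genes a summit near a TSS in the pooled ranked list (88.9%, against 76.5%). The other 6 were eEF1delta, eIF3d2, eIF3g2, eIF4B, eIF4E4 and eIF4G1. The gene of eIF4G1, the main eIF4G scaffold, is the 1 member on chromosome 4, where 1 of 80 protein-coding genes (1.25%) had a pooled thresholded summit near a TSS.

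Peaks overlapping genes were counted by a rule of their own, and a peak near a TSS that reached into the gene was counted under both rules. In the pooled list 16 of 54 genes (29.6%) were overlapped by a peak, against 22.8% of all genes. The conservative list also gave 16 (against 22%), replicate 1 gave 10 (18.5%, against 19.1%) and replicate 2 gave 14 (25.9%, against 16.3%). Long genes hold more peaks: of the 5 members of at least 10 kb, 3 had one (60%), against 61% of all genes of that length. Those 3 were eIF4EHP, eIF4G2 and eIF5B. Of the 49 shorter members 13 had one (26.5%), against 16.5%. In the pooled list 12 genes had both a summit near a TSS and a peak overlapping the gene, and in all 12 the same peak met both rules. At eEF1gamma, eIF2D, eIF3a and eIF6 the summit of that peak lay outside the gene. At eRF3 such a peak had its summit outside the gene, and another had it in an intron. Another 2 genes had the summit alone (eEFSec and eIF2Bbeta) and 4 had the gene-body peak alone (eEF1alpha2, eIF4EHP, eIF4G2 and eRF1). Shares of all genes were not computed for these groups.

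Over the 4 lists, 22 genes (40.7%) had a peak of either kind, against 32.5% of all genes, and 32 had none. Of the 7 genes for start codon choice and subunit joining 6 had a peak, as did 6 of the 8 elongation genes and both release factor genes. For eIF2, the factor that carries the first tRNA, it was 0 of 3 subunits, and for eIF2B, which reloads eIF2 with GTP, 1 of 5. Of 16 eIF3 genes, whose products form the large scaffold on the small subunit, 4 had a peak, and of 13 genes for cap binding and unwinding 3 had one. These groups are small, and no difference between roles was tested.

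**Figure D2:**
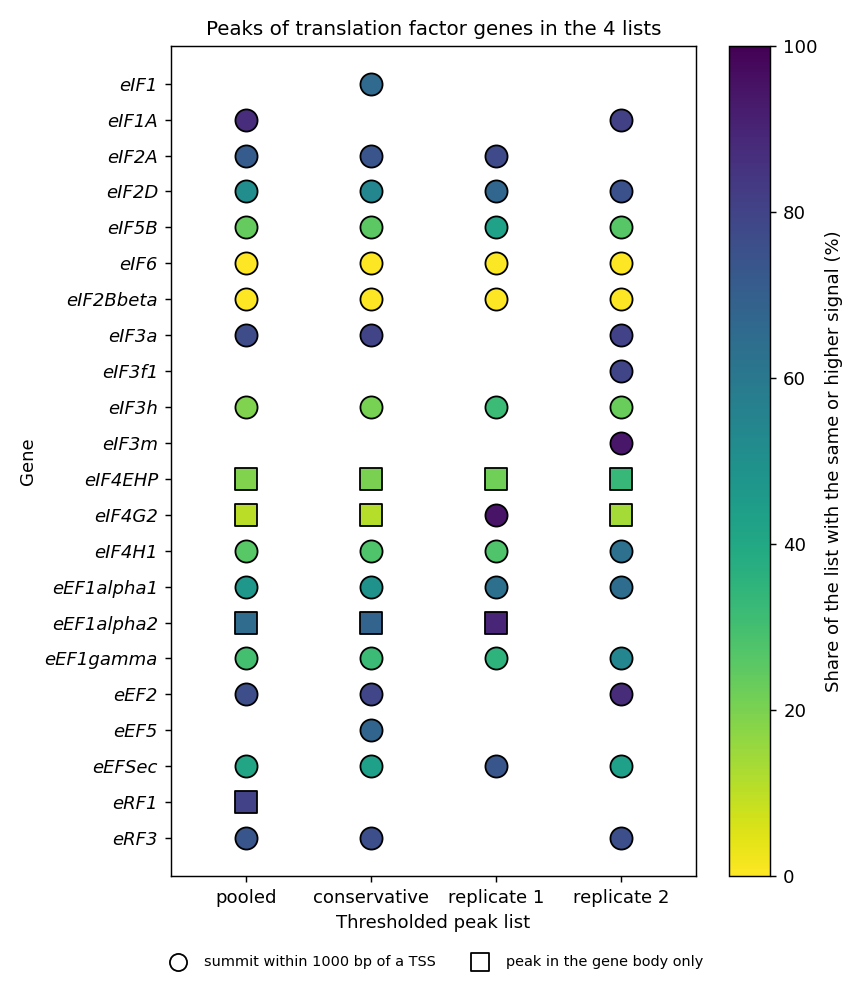
Peaks of the 22 translation factor genes in the 4 thresholded lists (columns). The colour is the share of that list (%) with the same or higher signal, for the strongest summit within 1000 bp of a TSS (circle) or, where there is none, the strongest peak in the gene (square), and a blank means no peak. eIF2Bbeta and eIF6 are at the top of all 4 lists, and for eIF4G2 in replicate 1 the circle is a weak TSS peak beside a stronger one in the intron.

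Signal is the authors' value for a peak and is used here to rank peaks within a list. The sources used here do not give its scale, so the values of the 3 lists named in a sentence are set side by side and not compared. The median of the pooled list was 120, and the median of the strongest summit per gene was 133 for the 14 translation factor genes and 143 for the 3516 genes with a summit.

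Among the genes for start codon choice and subunit joining, the strongest peak was at eIF6, whose product keeps the large subunit from joining too early. Its summit, 100 bp upstream of the TSS at chr2R:23850255-23850562, had a signal of 1544 in the pooled list (rank 26 of 8443), 761 in replicate 1 (rank 48) and 787 in replicate 2 (rank 13). The position is shared: it lies inside the neighbouring gene ytr and at the start of the antisense RNA gene asRNA:CR45928. The lists do not assign a peak to a gene, and which of these overlapping genes it belongs to cannot be told.

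eIF5B, a GTPase that joins the subunits, had 7 pooled peaks along its 32320 bp. The one at the start, 137 bp upstream of its nearest TSS and in the 5' UTR of a longer transcript, lay at chr3L:3460548-3460931 and had a signal of 207 (rank 1989), 98.6 in replicate 1 and 107 in replicate 2. A peak 27702 bp downstream had 187 in the pooled list, 97.0 and 95.2 in the replicates. One 16167 bp downstream had 155, 75.4 and 78.8. These 3 were found in every list. The other 4 lacked a thresholded peak in 1 or both replicates: 113 at 25427 bp, with 67.9 in replicate 1 and no thresholded replicate 2 peak, and 103 at 20256 bp, 58.4 at 5360 bp and 48.7 at 5142 bp, with none in either replicate. The last 2 overlap each other. For 3 of the intron peaks, those at 20256 bp and beyond, the nearest protein-coding TSS was that of sty, between 7966 and 15412 bp away.

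The other genes of this role lay in the middle and lower ranks. eIF2D, whose mammalian counterpart helps to recycle ribosomes, had a summit 190 bp upstream (chr3R:29151792-29152175) with a signal of 118 (rank 4335), 70.2 in replicate 1 and 52.1 in replicate 2. eIF2A had one 37 bp upstream of a TSS, in a 5' UTR (chr3L:21824736-21825119), with 90.3 (rank 6010), 62.3 in replicate 1 and no thresholded peak in replicate 2. eIF1A, which binds the small subunit during scanning, had one in an intron 911 bp downstream (chr3R:18275417-18275800) with 73.6 (rank 7370), none in replicate 1 and 49.1 in replicate 2. It is absent from the conservative list, and lies nearest to the edge of the 1000 bp window among the counted summits. eIF1, the partner of eIF1A in scanning, appeared in the conservative list alone. It had peaks of signal 100.5 and 21.2 there, 301 bp and 75 bp upstream, and the stronger one was nearer to RpL28, a ribosomal protein gene, at 80 bp. In the pooled ranked list the best eIF1 peak scored 572, under the 830 that is the lowest score in the thresholded lists. eIF5, which triggers GTP hydrolysis on eIF2 at the start codon, had no thresholded peak, and its best score in the pooled ranked list was 45.

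The highest-ranked peak given to any of the 54 genes was at eIF2Bbeta. Its summit at chrX:2703693-2704067 had a signal of 3191 in the pooled list (rank 2), 1772 in replicate 1 (rank 2) and 1435 in replicate 2 (rank 1). It lay 681 bp upstream of eIF2Bbeta and 38 bp from the TSS of Ugalt, a sugar transporter gene, so the window rule gave it to both. The peak did not overlap the eIF2Bbeta gene. The other 4 eIF2B genes (eIF2Balpha, eIF2Bgamma, eIF2Bdelta and eIF2Bepsilon) and the 3 eIF2 genes (eIF2alpha, eIF2beta and eIF2gamma) had no thresholded peak in any list.

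**Figure D3:**
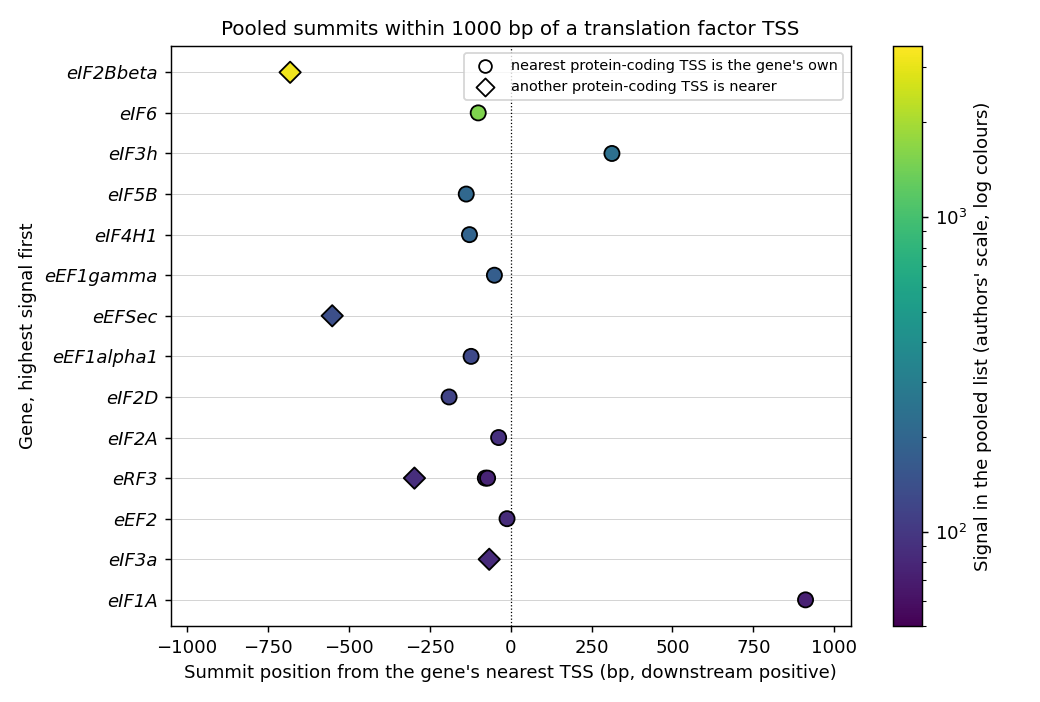
Position of each pooled summit within 1000 bp of a translation factor TSS (bp, horizontal axis, downstream positive) for 14 genes in order of their highest signal. Colour gives the signal on a log scale, and diamonds mark summits that are nearer to another gene's protein-coding TSS. 11 genes have a circle, and the highest signal, at eIF2Bbeta, is a diamond 681 bp upstream.

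Of the 16 eIF3 genes, eIF3h had the strongest peak, in an intron 313 bp downstream of a TSS (chr2L:5052381-5052540). Its signal was 235 in the pooled list (rank 1624), 120 in replicate 1 and 118 in replicate 2, and the gene senju starts 376 bp from the summit. The peak of eIF3a, a core subunit, lay 66 bp upstream (chr3R:4433769-4434152) and 4 bp from the TSS of its divergent neighbour CG1074. Its signal was 83.3 (rank 6529), with none in replicate 1 and 49.3 in replicate 2. eIF3f1 and eIF3m had a thresholded peak in replicate 2 alone, of signal 49.6 at 43 bp upstream and 40.1 at 127 bp upstream, the latter nearer to CG8323. Their best scores in the pooled ranked list were 567 and 545. The other 12 (eIF3b, eIF3c, eIF3d1, eIF3d2, eIF3e, eIF3f2, eIF3g1, eIF3g2, eIF3i, eIF3j, eIF3k and eIF3l) had none. Of the copied subunits, f1 had a peak and f2 had none, and neither copy of d or g had one.

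Cap binding and unwinding genes had most of their peaks in introns. At eIF4H1, a cofactor of the helicase eIF4A, the summit lay 127 bp upstream of a TSS, inside an intron (chrX:16448833-16449216), and had a pooled signal of 193 (rank 2179), 132 in replicate 1 and 59.7 in replicate 2. At eIF4G2, an eIF4G copy needed in male germ cells, it lay 1081 bp downstream of the TSS, in an intron (chr3R:23817650-23817855) and just past the window. It had the highest rank of the gene-body peaks away from a TSS, with 348 (rank 870), 188 in replicate 1 (rank 987) and 159 in replicate 2 (rank 743). eIF4G2 shares that TSS with CG33111, and the summit of the intron peak also lies inside CG33111 and CG34355. Replicate 1 also had weak peaks of 40.6 and 23.7 at the start, which put eIF4G2 in the replicate 1 count.

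eIF4EHP, a cap-binding protein that represses translation and is known for its work with Bicoid on caudal mRNA, is the longest member at 45884 bp. Its strongest pooled thresholded peak lay in an intron 9774 bp downstream of the TSS (chr3R:24099076-24099258), with a signal of 237 (rank 1604), 155 in replicate 1 and 93.9 in replicate 2. A second, 29567 bp downstream, had 102 in the pooled list and none in the replicates. Both were nearer to another protein-coding TSS, the first to that of Syx1A (6577 bp) and the second to that of SMC1 (21106 bp). The conservative list added a peak of 83.3 at 35709 bp and replicate 2 a peak of 40.6 at 35029 bp, both also nearer to SMC1. No thresholded list had a peak at the start of eIF4EHP.

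The ranked lists did have one there. At chr3R:24109004-24109389, 233 bp upstream, the pooled ranked list held a peak of signal 1360 with the full score of 1000, rank 51 of 96649. It had 911 in the replicate 1 ranked list (rank 26 of 85586) and 444 in that of replicate 2 (rank 91 of 77876). By signal it would be rank 48 of the pooled thresholded list. CG18428 also starts within 1000 bp of it. Another 4 pooled peaks between 2513 and 4095 bp inside the gene, of signal 137, 104, 55.4 and 6.08, also scored at or over 830 and were absent from the thresholded list. Syx1A starts within 1000 bp of each of these 4 summits, and CG10694 within 1000 bp of the strongest.

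Such peaks were few. In the pooled ranked list 183 peaks on the assembled chromosomes (2.12%) reached 830 and were not in the thresholded list. The deposited readme texts trace the thresholded lists to 1 further file that the ranked lists do not name. The sources used here do not say what that file holds, so the reason was not tested. With these peaks added the pooled count rose from 14 to 15 translation factor genes, and that of all genes to 25.8%. In the conservative list the same step added eIF4EHP and eIF4A, the RNA helicase of the cap complex, whose peak of signal 59.4 lay 189 bp downstream.

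**Figure D4:**
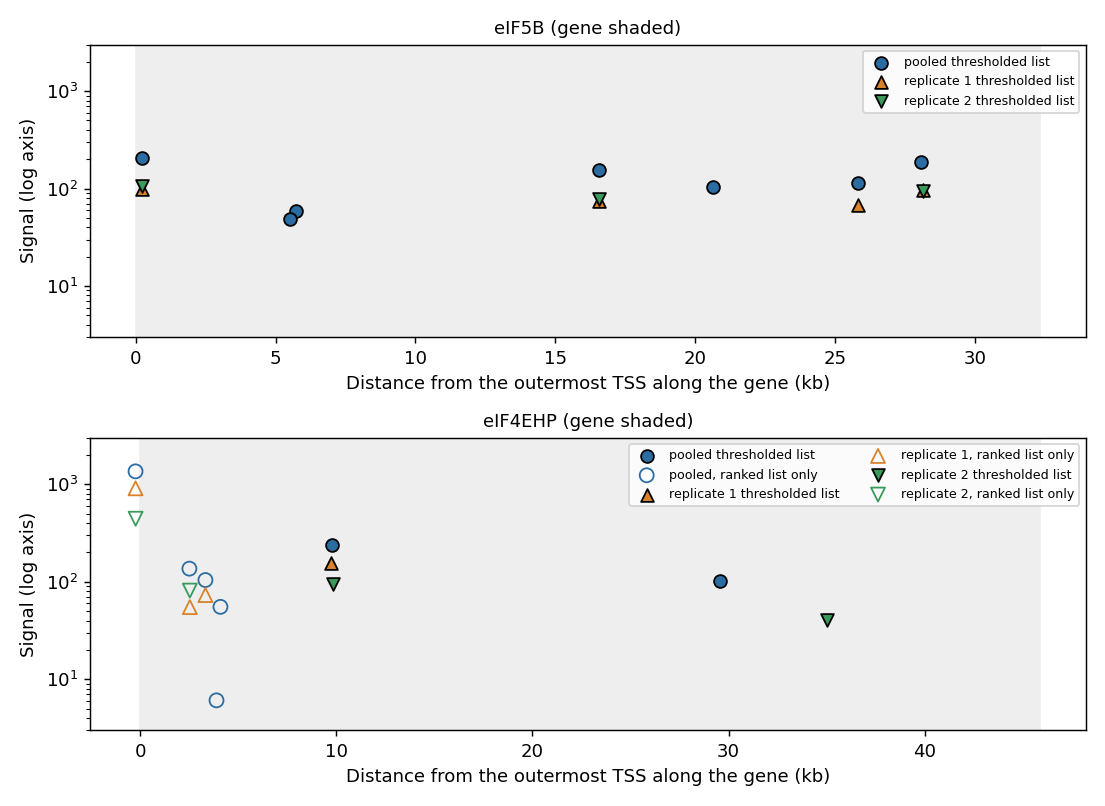
Signal (log axis) of the peaks along eIF5B (top) and eIF4EHP (bottom) by distance from the outermost TSS (kb), with the gene shaded. Filled marks are thresholded peaks of the pooled list and of each replicate, open marks are peaks that reached the lowest thresholded score in a ranked list only. The open marks at the start of eIF4EHP, at 1360, 911 and 444, lie above every filled mark in both genes.

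The other 10 cap binding genes had no thresholded peak: eIF4A, eIF4B, eIF4G1, eIF4H2, eIF4E1, which is the general cap-binding protein, and its copies eIF4E3, eIF4E4, eIF4E5, eIF4E6 and eIF4E7. Among them eIF4A came nearest in the pooled ranked list with a score of 786, followed by eIF4E1 with 583. The highest score in the pooled ranked list of a gene without a thresholded peak was 797, at the elongation gene eEF1beta, and in the conservative ranked list eIF4A reached 887. In both pairs of copies 1 had a peak and the other did not, with a peak at eIF4H1 and eIF4G2 and none at eIF4H2 and eIF4G1.

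Elongation genes had moderate peaks, mostly close to the start. At eEF1gamma, a subunit of the exchange factor that reloads eEF1alpha, the summit lay 50 bp upstream (chr3R:29219930-29220313) in the window printed with its DRE. Its signal was 174 in the pooled list (rank 2515), 112 in replicate 1 and 66.9 in replicate 2. A far stronger peak had eEF1gamma as its nearest protein-coding gene but lay 5728 bp upstream, at the start of the non-coding gene lncRNA:CR31044 (chr3R:29214262-29214609). It had 1722 in the pooled list (rank 19), 968 in replicate 1 and 760 in replicate 2, and was not counted for eEF1gamma. Another of signal 176 lay 4866 bp upstream, near mir-279.

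eEF1alpha1, which delivers tRNAs to the ribosome, had a summit 122 bp upstream of a TSS, inside an intron (chr2R:11891808-11892191). Its signal was 127 in the pooled list (rank 3928), 73.5 in replicate 1 and 58.8 in replicate 2. Its copy eEF1alpha2 had none near a TSS but one in an intron 1777 bp downstream (chr3R:31741245-31741628), of 97.6 (rank 5503), 52.9 in replicate 1 and no thresholded peak in replicate 2. So both copies had a peak, at different places in the gene.

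eEFSec, the factor for selenocysteine tRNA, had a summit 551 bp upstream (chr2R:21386580-21386963) of 140 (rank 3473), 65.3 in replicate 1 and 76.7 in replicate 2. It was nearer to Acox57D-p, at 146 bp. eEF2, which moves the ribosome along the message, had one 11 bp upstream of a TSS in the 5' UTR (chr2L:21681935-21682318) of 84.4 (rank 6443), with none in replicate 1, where the best ranked score was 604, and 44.9 in replicate 2. eEF5, also called eIF5A, had one in the conservative list alone, 57 bp downstream, of signal 97.8. The same site scored 88 in the pooled ranked list. eEF1beta and eEF1delta had none.

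Both release factor genes had weak peaks. eRF3, the GTPase partner of eRF1, had 3 pooled summits. They were 78 bp upstream (chr2L:12434182-12434565, 88.2, rank 6170), 297 bp upstream (87.0, nearer to SC35 at 117 bp) and 71 bp upstream of an inner TSS (76.3). Replicate 1 had no thresholded peak there, and replicate 2 had 1, of signal 51.8, at 80 bp upstream. eRF1, which reads the stop codon, had a pooled peak of 80.5 (rank 6770) at its 3' UTR, 4852 bp downstream of the nearest TSS (chr3L:20353597-20353980), and none in either replicate. That summit was 131 bp from the TSS of CG5618.

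Translation factor genes with a pooled summit were longer than those without, with a median length of 3608 bp for the 14 and 1955 bp for the other 40. Over all genes the median was 3925 bp with a summit and 2166 bp overall. Close neighbours were common, as 55.6% of the 54 had another protein-coding TSS within 1000 bp, against 42.2% of all genes. For the 14 with a summit it was 71.4%, and for all genes with a summit 55.1%. How far length and neighbours bear on the counts was not tested.

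The promoters of the members were set beside those of all 13944 protein-coding genes with a transcript marked as canonical. Each promoter ran from 250 bp before to 50 bp after the start of that transcript. The DRE was present in 15 of 54 (27.8%), against 8.94%. TAATTA was present in 16 (29.6%), against 20.03%, GGTCACAC in 6 (11.1%), against 7.54%, and CACGTG in 4 (7.41%: eEF2, eIF2A, eIF3f2 and eIF4A), against 4.26%. GAGAGAG was present in 1 (1.85%), against 6.2%. Of the words read on the sense strand at fixed places, TATAAA between 45 and 15 bp before the start was in 2 (3.70%: eIF3b and eIF4E7), against 8.95%, and the initiator TCAGT in 1 (1.85%: eEF1alpha2), against 6.0%. CTTT with its C within 2 bp of the start, the core of the TCT initiator of ribosomal protein genes, was in 0, against 2.29%. The median G and C content of the promoters was 35.8%, against 38% for all.

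**Figure D5:**
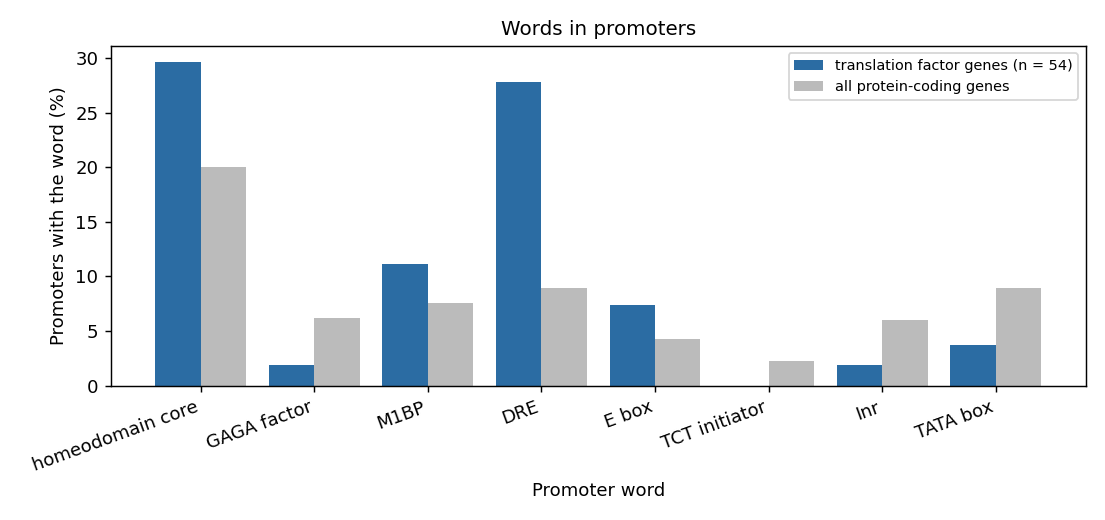
Share of promoters (%) that hold each of 8 words, for 54 translation factor genes (blue) and all protein-coding genes (grey). The widest gap is at the DRE, 27.8% against 8.94%.

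The DRE was found in promoters of members with and without a peak. It lay in the promoter of 5 of the 14 genes with a pooled summit and 10 of the 40 without. Over all genes it was in 10.01% of promoters of genes with a summit and 8.57% of those without. TAATTA was in 3 of the 14 and 13 of the 40, where all genes had 19.1% with a summit and 20.4% without. GGTCACAC was in 0 of the 14 and 6 of the 40, where all genes had 10.01% and 6.70%. Promoters were read at the canonical start alone, while a summit near any TSS of the gene was counted. The promoter read is therefore not always at the TSS that the summit lay near. At eIF2A the summit window held GGTCACAC and the promoter did not. The DRE sites below, with 10 bases on either side and read on the strand of the gene, show members with a pooled summit (eEF1gamma, eIF1A, eIF2Bbeta and eIF3a) and without (eIF4A and eRF1), with the DRE in capitals. They lie on Release 6 at chr3R:29220121-29220148, chr3R:18274453-18274480, chrX:2704589-2704616, chr3R:4433916-4433943, chr2L:5981702-5981729 and chr3L:20348320-20348347 in that order.
eEF1gamma: gcctaggaaaTATCGATAtatcgccgta
eIF1A: tgatgatagaTATCGATAgctttagcgg
eIF2Bbeta: gcctgccgccTATCGATAacattgctcg
eIF3a: cggcctgaacTATCGATAacgcagccag
eIF4A: gcgatcgatcTATCGATAgtcgctaatg
eRF1: tattttaagaTATCGATAatgtcatcgg

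Of these sites, those of eEF1gamma and eIF3a fall inside the summit window of the same gene. The one of eIF2Bbeta lies just downstream of its own start, away from the Ugalt summit, and that of eIF1A lies before the start while its summit is in the intron. eIF2gamma, with no thresholded peak, had 3 sites. A match is a run of letters and not evidence that a factor binds it.

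Other genes of translation and its control were counted from a separate list. Of 37 listed, 36 were matched and 13 had a pooled summit near a TSS (36.1%, beside 25.2% of all genes). The conservative list gave 12, replicate 1 gave 10 and replicate 2 gave 9. Repressors and partners of eIF4E, eIF4A or the poly(A)-binding protein had 7 of 11, the Tor pathway 2 of 7, the eIF2 kinases and their partners 1 of 5, ribosome rescue and scaffolds 1 of 6 and mitochondrial factors 2 of 7. Those of the Tor pathway were mTor and raptor, and the strongest raptor summit was nearer to Nep1 (147 bp) than to raptor (857 bp). Strongest was pAbp, the poly(A)-binding protein gene, whose pooled signal was 326, with 170 and 171 in replicates 1 and 2. Next came larp with 278 (161 and 127) and by crc, the ATF4 gene of the eIF2 kinase response, with 219 (114 and 97.5) at a TSS shared with CG46314. The kinase gene mTor had 187 (104 and 100.97), nearer to Vha68-1. Thor, the 4E-BP gene whose product holds eIF4E away from eIF4G, had 162 (91.5 and 67.7), 38 bp downstream of its TSS. Pdcd4, an eIF4A inhibitor gene, had 142 (92.8 and 60.5). The 6 were chosen by their signal in a list made from both replicates, and all had a summit in both replicate lists. Of the other genes with a pooled summit, raptor and Paip2 were in both replicate lists and NAT1 and mEFTu2 in neither. Fmr1 and mIF2 were in that of replicate 1 alone, and Rack1 in that of replicate 2 alone.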

How the data were processed

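ChIP-seq peak lists of 2 biological replicates of whole Drgx-eGFP embryos were analysed. Peaks on dm6 were ranked and thresholded by IDR (irreproducible discovery rate), which scores the agreement of peak ranks between 2 lists, per the deposited readme texts. Which aligner and peak caller were used was not given in the sources used here. Each deposited peak has a score of 0 to 1000, which the authors set from the IDR (830, the lowest in the thresholded lists, corresponds to 0.0100). It also has a deposited signal, whose scale is not given, and a deposited −log10 q value, which was not used for any result. The lists hold no read counts, so depth is unknown and no interval is given. The names of the 2 ranked lists made from both replicates were inferred. The list whose number of peaks at or over 830 was nearest to the length of the conservative list was called conservative. The other was called pooled.

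Summits were placed by the deposited offset, and counted for a gene within 1000 bp of any annotated TSS. A peak was counted in a gene body where it overlapped the gene by at least 1 bp. Genes came from Ensembl release 115 and sequence from the Release 6 assembly of NCBI, used as dm6, with 0 peaks beyond a chromosome end. Genes and peaks on X, 2L, 2R, 3L, 3R and 4 were used. Signal was ranked within a list only. Python 3.11.15, numpy 2.4.6, pandas 2.3.3 and matplotlib 3.10.9 were used. The step that assigns summits to a TSS was tested on simulated peaks, and the other steps were not. The members, lists and words were chosen with earlier results of these data known. Every translation factor gene with a peak in any thresholded list is named with its values, and of the other pathway genes the 6 of highest signal. No test was made. Alternatives were other distances, one TSS per gene, each other list, stricter peaks, and 2 sets chosen after seeing the data, the added ranked peaks and the promoter limits for the DRE.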

Additional observations from a re-analysis of the deposited data

How the results depend on the processing

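The count of 14 translation factor genes with a pooled summit near a TSS (all genes 25.2%) was 11 within 500 bp (all genes 20.9%), 20 within 2000 bp (31.9%) and 30 within 5000 bp (48.8%). It was 14 with one TSS per gene (22.9%), and 15 in the conservative list (24.1%), for any base of the peak (26.5%) and with the added ranked peaks (25.8%). It was 8 for the 4221 peaks of higher signal (all genes 15%), and 9 where the peak overlapped both replicates by 1 bp (14.8%) or by 50% of its length (13.8%). With 1 replicate list alone it was 11 in replicate 1 (all genes 20.4%) and 15 in replicate 2 (18.1%). The gene-body count of 16 was 10 in the replicate 1 list and 14 in that of replicate 2, and 8 for those 4221 peaks (all genes 14.2%). It was 12 with the summit or 50% of the peak inside the gene (all genes 17.1% for each). Genes whose own TSS was nearest numbered 9 in the replicate 1 list (all genes 16.0%) and 11 in that of replicate 2 (14.0%). The cause of these changes was not tested beyond the fewer peaks or wider windows that define them. The DRE was in 13 to 18 member promoters under other limits, against 7.29% to 11.2% of all. For the 9 genes with a summit in both replicate lists, the share of the list with the same or higher signal was compared with its pooled value. It moved by more than the SD between those lists in 11 comparisons and by less in 16. The other 5 have no such SD. The lists differ in length, so this share can move where the rank hardly does. Each replicate value also entered the SD it was set against, so these counts do not measure how stable a rank is. No paired analysis was possible because there is 1 group and no test between groups. Unknown depth, 2 replicates and no control limit what absence of a peak means.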
